A study of Mus musculus with 12 samples.

Results

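The 35 genes described here encode the enzymes of fatty acid oxidation and a few of its transport, electron transfer and transcriptional partners. They were taken by symbol from a list drawn up with earlier results of these data known, by a rule that uses no measured value, and all 35 had an entry among the 23282 entries of the deposited count tables. RNA of skin from male C57BL/6J mice, wild type by their labels and bought at 5 weeks of age, was sequenced from the 3′ ends of mRNA (QuantSeq), with 1 library per mouse. All 12 mice carried lesions resembling atopic dermatitis (AD), induced by 0.5% 2,4-dinitrochlorobenzene (DNCB), a contact sensitizer, 3 times a week for 6 weeks. They were fasted for 12 h before skin was collected. The 5 AD mice were not given the high-fat diet. The 7 HF + AD mice, AD+OB in the labels, received a diet with 60% of its energy as fat for 10 weeks, of which 4 preceded DNCB. The paper reports higher body weights and more severe lesions in HF + AD than in AD mice. The comparison asked how these genes differed in lesional skin between the groups, where diet, obesity and severity cannot be told apart. Mice without DNCB were not analysed here, so neither group stands for healthy skin.

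Fatty acids are burned in mitochondria after activation to acyl-CoA. The carnitine shuttle carries long chains across the inner membrane, and a repeating spiral of dehydrogenation, hydration, a further dehydrogenation and thiolysis then shortens them, with electrons passed to the respiratory chain through the electron transfer flavoprotein. Peroxisomes start the breakdown of very long and branched chains, and the nuclear receptors of the PPAR family, bound by fatty acids, switch many of these genes on. In skin, the pathway runs in keratinocytes, sebaceous glands, dermal fat and the thin muscle layer beneath the fat.

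Total counts were 9746937 to 11688979 in the AD mice and 10726845 to 13462434 in the HF + AD mice, and levels are given in CPM, counts relative to the library's TMM-scaled total. A count of 0 allows up to 3 counts, or 0.218 to 0.311 CPM, a limit for counting error alone. Across genes, Pearson's r of 1 library with another was 0.859 to 0.951 among AD mice and 0.946 to 0.977 among HF + AD mice. Genes with a read numbered 13100 to 15063 in AD and 15522 to 16677 in HF + AD, with no overlap. Markers of several cell types moved with the groups or with single libraries, and AD mouse 1 stood apart in more than 1 list. The summed level of 20 skeletal muscle markers was 2280 to 5094 CPM (median 3647) in AD and 1389 to 3495 CPM (median 2032) in HF + AD. Of these 20, 17 had a lower mean in HF + AD and 4 passed the test, all lower (Acta1, Myl1, Atp2a1 and Ttn). For this and the other marker lists, the background was 4.77% of all 14163 genes called lower and 4.43% called higher. The sum of 6 basal keratinocyte markers did not overlap, at 3607 to 5265 CPM in AD and 6231 to 10878 CPM in HF + AD, and 3 of the 6 rose (Krt5, Krt14 and Krt15). The sum of 10 white adipocyte markers was highest in AD mouse 1 (1155 CPM), HF + AD mouse 7 (893 CPM) and AD mouse 2 (781 CPM), against 287 to 544 CPM in the other mice. Of the 9 tested, 4 had a higher mean and 5 a lower one in HF + AD, and 2 rose (Lipe and Pnpla2). Sebocyte markers also went both ways, with 4 higher and 5 lower of 9 tested, and 1 rose (Awat1). The sum of 6 dermal fibroblast markers was highest in HF + AD mouse 7 (10287 CPM), AD mouse 1 (9893 CPM) and HF + AD mouse 3 (8348 CPM), against 3286 to 5274 CPM in the others. The sum of 9 macrophage and dendritic cell markers was 379 CPM in AD mouse 1, 111 to 209 CPM in the other AD mice and 166 to 438 CPM in HF + AD. That of 6 markers of hyperproliferative epidermis was 23512 CPM in AD mouse 1, 7064 to 9608 CPM in the other AD mice and 7118 to 18259 CPM in HF + AD. For 6 suprabasal keratinocyte markers it was 2561 CPM in AD mouse 1 and 550 to 1545 CPM in the other AD mice. In HF + AD it was 514 to 1712 CPM. Brown adipocyte markers (6) summed to 208 to 517 CPM (median 413) in AD, lowest in AD mouse 1. Their sum was 290 to 429 CPM (median 325) in HF + AD. Of the 4 with enough counts to be tested, 1 had a higher mean and 3 a lower one in HF + AD, and none passed. Of 10 hair shaft markers, 4 rose, and their sum was 6803 to 10647 CPM in AD and 8012 to 12790 CPM in HF + AD. The part of these cell types in the results below was not tested. In whole skin, fewer cells of a type and less RNA per cell cannot be told apart.

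Single genes among the 35 differed between the groups, in both directions. Of 34 members with enough counts to be tested, 4 passed an adjusted p of 0.05 in edgeR's quasi-likelihood test, or 11.8%, against 9.2% of all 14163 genes tested. Acadl, Crat and Decr1 fell and Hadha rose in HF + AD (background, 4.77% of genes lower and 4.43% higher). At an unadjusted p under 0.05, 10 members passed, 3 higher and 7 lower, where 25.1% of all genes did (1743 higher and 1808 lower of 14163). The median log2 fold change was −0.05 over the 34 members, 16 of them higher and 18 lower, and 0.02 over all genes tested. The untested member was Ehhadh, the peroxisomal bifunctional enzyme, with 0 to 9 counts in AD and 2 to 14 counts in HF + AD. The shares that passed in either direction lie near the background, so they are no result about the members as a group. The split by direction was not tested. Without AD mice 1 and 2 and HF + AD mouse 7, the libraries with the most adipocyte marker counts, 0 members passed edgeR's test and 7 had an unadjusted p under 0.05 (background, 2.83% of genes called and 23.7% at an unadjusted p under 0.05). In that fit Acadl, Crat and Decr1 had log2 fold changes of −0.72, −0.71 and −0.43, and Hadha one of 0.73. That alternative was chosen after seeing the data. Without AD mouse 1 alone, 3 members passed (Acadl, Acox3 and Crat), where 10% of all genes did. Of the genes called, 48.1% were higher with TMM scaling, 59.1% with library totals alone and 35.2% with the GC trend of each library removed. The summed level of all 35 was 3165 to 3580 CPM (median 3325) in AD and 2760 to 3228 CPM (median 2863) in HF + AD. The ranges overlapped through HF + AD mouse 4 alone, and the other HF + AD mice lay below all AD mice. This sum weighs abundant genes most and does not describe the members one by one, since 16 of the 34 were higher. Median levels in AD and HF + AD were 643 and 446 CPM for Hadh, 381 and 219 CPM for Acadl, and 434 and 423 CPM for Acaa2.

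**Figure D1:**
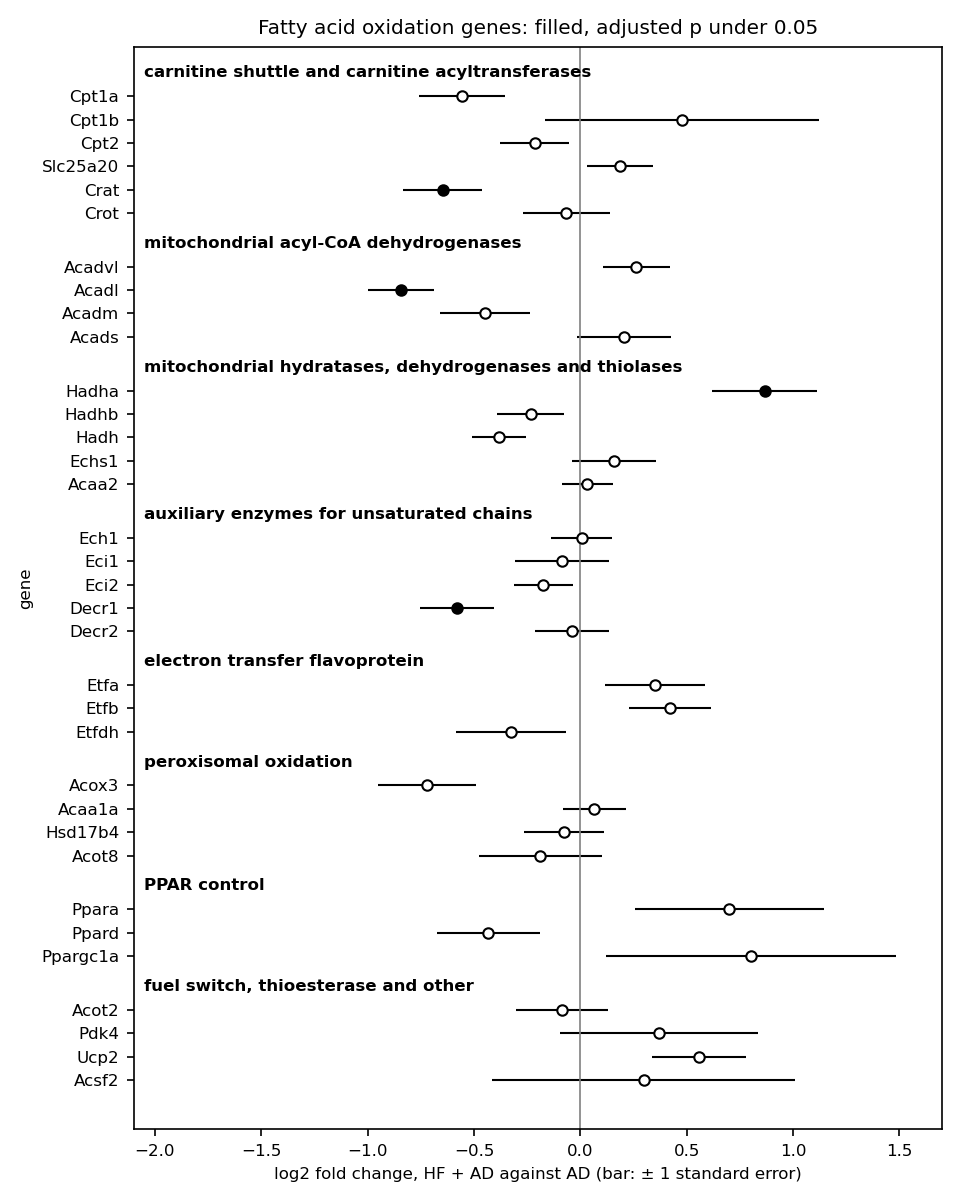
Each point is the log2 fold change of a member, HF + AD (n = 7) against AD (n = 5), with its standard error, grouped by role; filled points passed an adjusted p of 0.05. Acadl, Crat and Decr1 lie left of 0 and Hadha right of it, and within every role members lie on both sides.

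Of the 6 genes of the carnitine shuttle and the carnitine acyltransferases, Crat alone passed the test. Crat encodes carnitine acetyltransferase, which moves acetyl and other short acyl groups between CoA and carnitine. Its level was 124, 159.7, 106, 139 and 227 CPM in AD mice 1 to 5, and 71.3 to 127 CPM (median 97.1) in HF + AD. AD mouse 5 was highest, and 5 of the 7 HF + AD mice lay below every AD mouse. On the log2(CPM + 1) scale the means were 7.20 ± 0.41 (SD, n = 5) and 6.58 ± 0.29 (SD, n = 7), and the exact two-sided permutation p was 0.0152. The fitted log2 fold change was −0.65 ± 0.19 (SE, adjusted p = 0.0375). Without any 1 of AD mice 2, 4 and 5 or HF + AD mice 1, 2, 3, 4, 6 and 7, the adjusted p was 0.0527 to 0.112. Without the 3 libraries with the most adipocyte marker counts, the log2 fold change was −0.71 (adjusted p = 0.0873). The 3′ end of Crat (chr2:30400471-30415813, minus strand, GRCm38) overlaps that of Dolpp1 on the opposite strand, and since the strand setting of the counting was not given, their reads cannot be told apart. Dolpp1 had a log2 fold change of −0.33 (adjusted p = 0.398).

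Cpt1a, the outer-membrane transferase whose reaction limits the entry of long chains, stood at 135, 195, 118, 176 and 267 CPM in the AD mice. In HF + AD it was 92.1 to 169 CPM (median 109.6). The 4 lowest HF + AD mice lay below all AD mice, and the others overlapped them. The log2 fold change was −0.56 ± 0.20 (SE, adjusted p = 0.0914), short of the threshold (exact permutation p = 0.048). With each mouse left out in turn the adjusted p was 0.0465 to 0.268, and it passed in 1 of these 12 fits, that without HF + AD mouse 5. Leaving out AD mouse 5 gave the highest p and a log2 fold change of −0.35. Cpt1b, the form of muscle and brown fat, was low, at 8.17, 2.69, 0.303, 5.31 and 4.98 CPM in AD, with 3 counts in AD mouse 3. It was 2.10 to 10.9 CPM (median 6.32) in HF + AD, with overlap (log2 fold change 0.48 ± 0.64, SE, adjusted p = 0.700).

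Cpt2, the transferase of the inner membrane, which hands the chain back to CoA, measured 39.4, 62.3, 65.1, 51.8 and 43.7 CPM in AD. HF + AD mice gave 38.0 to 54.8 CPM (median 45.9). In HF + AD, 1 mouse lay below the AD range, and the difference did not pass (log2 fold change −0.22 ± 0.16, SE, adjusted p = 0.451). Slc25a20, the carrier that exchanges acylcarnitine for carnitine, measured 49.5, 45.4, 76.6, 57.7 and 60.3 CPM in AD. HF + AD mice gave 51.9 to 73.4 CPM (median 65.1). All 7 lay inside the AD range (log2 fold change 0.19 ± 0.16, SE, adjusted p = 0.495). Crot, which makes medium-chain carnitine esters in peroxisomes, had a log2 fold change of −0.07 (adjusted p = 0.880). The summed level of these 6 genes was 405 to 645 CPM in AD and 340 to 462 CPM in HF + AD.

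Acadl was the member with the smallest p and the only 1 of the 34 whose groups did not overlap (background, 5.57% of genes with a mean count of at least 20). It lies at chr1:66830839-66863277 (minus strand, GRCm38) and encodes long-chain acyl-CoA dehydrogenase, which opens the spiral for long and branched acyl-CoAs. Its level was 433, 488, 381, 366 and 367 CPM in AD mice 1 to 5, and 145 to 295 CPM (median 219) in HF + AD. Every HF + AD mouse was below the lowest AD mouse. Mean levels were 8.66 ± 0.18 (SD, n = 5) and 7.80 ± 0.34 (SD, n = 7) on the log2(CPM + 1) scale, with an exact two-sided permutation p of 0.00253, the smallest that 792 splits can give. In the fit, Acadl fell by 0.84 on the log2 scale (SE 0.16, adjusted p = 0.00677), and it passed without each single mouse (adjusted p 0.00447 to 0.0229). Without AD mice 1 and 2 and HF + AD mouse 7, those with the most adipocyte marker counts, it was −0.72 (adjusted p = 0.0529).

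**Figure D2:**
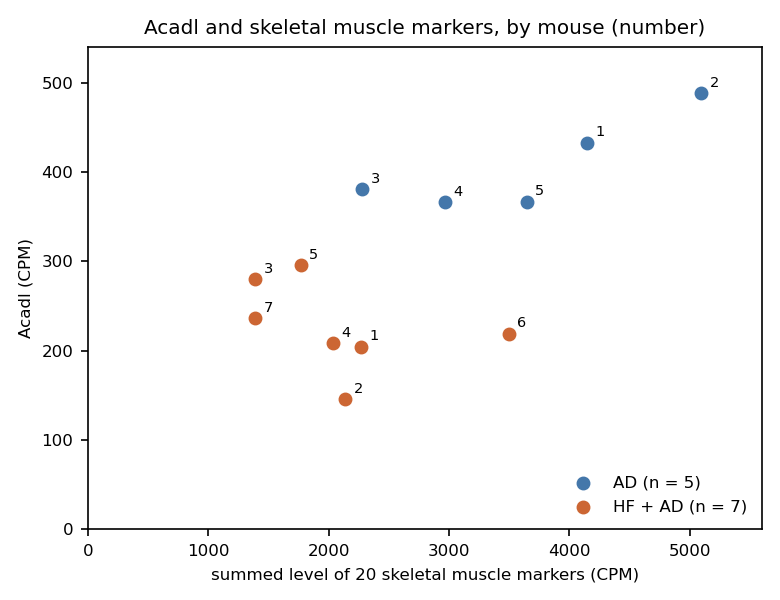
Acadl (CPM, vertical) against the summed level of 20 skeletal muscle markers (CPM, horizontal) in each mouse, numbered as in its label. The AD mice (blue) lie at 366 CPM of Acadl or above and the HF + AD mice (orange) at 295 CPM or below.

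Skeletal muscle burns much fat, and 4 of its 20 markers fell in HF + AD (20%, against 4.77% of all genes tested). In HF + AD mice 1 to 5 and 7 the muscle sum was 1389 to 2271 CPM. These mice lay below every AD mouse (2280 CPM or more) in the muscle sum, as they did in Acadl. HF + AD mouse 6 had a muscle sum of 3495 CPM, within the AD range, and an Acadl level of 219 CPM, below it. The part of muscle in the Acadl difference was not tested.

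The other acyl-CoA dehydrogenases, which take chains of other lengths, did not follow Acadl past the test. Acadm, for medium chains, was 62.3, 144, 114, 87.6 and 70.2 CPM in AD and 53.4 to 92.6 CPM (median 66.3) in HF + AD. In HF + AD, 3 mice lay below the AD range and the rest within it (log2 fold change −0.45 ± 0.21, SE, adjusted p = 0.197). Without AD mouse 2, the highest, the log2 fold change was −0.25 (adjusted p = 0.489). Acadvl, the membrane-bound enzyme for very long chains, had a log2 fold change of 0.26 ± 0.16 (SE, adjusted p = 0.317), and Acads, for short chains, one of 0.20 ± 0.22 (SE, adjusted p = 0.620). The 4 genes summed to 506 to 698 CPM in AD and 315 to 421 CPM in HF + AD, without overlap, but Acadl carried the separation. The other 3 summed to 120.0 to 210.2 CPM in AD and 123 to 169 CPM in HF + AD, which overlapped.

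Ratios within a mouse show the same measurement without the scaling of the library. The pairs were chosen after the values were seen, so the ratios are a description with no test. The log2 ratio of Acadl to Acadvl was 3.32 ± 0.27 (SD, n = 5) in AD and 2.21 ± 0.45 (SD, n = 7) in HF + AD, and all 7 HF + AD mice lay below all AD mice. That of Acadl to Acads was 4.24 ± 0.30 (SD, n = 5) and 3.17 ± 0.58 (SD, n = 7), with 6 of 7 below. That of Acadl to Acadm was 2.14 ± 0.44 (SD, n = 5) and 1.68 ± 0.60 (SD, n = 7), with 3 of 7 below.

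The promoters of the dehydrogenases can be set side by side. The RefSeq windows (GRCm38.p6) run from 250 bases before the start site to 50 after it. Capitals mark matches, on either strand, to the GC box GGGCGG, to the nuclear receptor core motif AGGTCA and to the nuclear respiratory factor 1 motif GCGCATGCG. Acadl (chr1:66863260-66863559, minus strand), which fell, and Acadm (chr3:153944594-153944893, minus strand), which did not pass, are shown as examples of windows with different motifs.
Acadl: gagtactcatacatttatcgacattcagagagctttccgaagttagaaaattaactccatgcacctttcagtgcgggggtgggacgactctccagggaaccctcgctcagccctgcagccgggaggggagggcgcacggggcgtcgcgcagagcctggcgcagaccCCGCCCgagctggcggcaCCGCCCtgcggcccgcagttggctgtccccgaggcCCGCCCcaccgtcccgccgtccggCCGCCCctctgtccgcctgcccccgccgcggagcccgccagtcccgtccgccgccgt
Acadm: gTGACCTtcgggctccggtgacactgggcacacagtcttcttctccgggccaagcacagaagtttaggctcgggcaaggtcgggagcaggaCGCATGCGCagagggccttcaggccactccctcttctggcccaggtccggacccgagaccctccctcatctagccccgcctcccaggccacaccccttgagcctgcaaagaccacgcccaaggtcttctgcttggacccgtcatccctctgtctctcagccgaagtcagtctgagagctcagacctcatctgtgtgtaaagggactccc
The Acadl window held 4 GC boxes and neither of the other motifs, and the Acadm window held AGGTCA and the nuclear respiratory factor 1 motif and no GC box. Acads, which did not pass either, held a GC box, as Acadl did. Cpt1b, Crat, Decr1, Acaa2 and Hsd17b4 had no window, so the called members Crat and Decr1 are not covered. Of 30 members with a window, 24 held a GC box (80%), against 35.7% of all 32851 windows and 59.8% of those of genes tested here. AGGTCA stood in 4 (13.3%; Cpt1a, Acadvl, Acadm and Echs1), against 16.3% of all windows and 12.8% of those of tested genes. The nuclear respiratory factor 1 motif stood in 3 (10%; Acadm, Etfdh and Ppara), against 1.75% and 3.23%. The direct repeat of AGGTCA with 1 base between copies, the motif bound by PPARs, and the estrogen-related receptor motif TNAAGGTCA stood in none, against 0.0396% and 1.28% of all windows. Both contain AGGTCA. A match is a description of letters and not a bound site.

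Hadha was the member that rose. It encodes the alpha subunit of the mitochondrial trifunctional protein, which hydrates and dehydrogenates long chains, and Hadhb encodes the beta subunit, the thiolase of the same complex. Hadha was 37.9, 53.5, 68.0, 55.3 and 70.4 CPM in AD mice 1 to 5, and 50.7 to 148 CPM (median 101) in HF + AD. In all, 6 of the 7 HF + AD mice were above every AD mouse, and HF + AD mouse 5, the lowest, lay within the AD range. Means were 5.83 ± 0.35 (SD, n = 5) and 6.63 ± 0.56 (SD, n = 7) on the log2(CPM + 1) scale (exact two-sided permutation p = 0.0253). The fitted log2 fold change was 0.87 ± 0.25 (SE, adjusted p = 0.0363). Without any 1 of AD mice 1 to 4 or HF + AD mice 1, 2, 4 and 6, the adjusted p was 0.0506 to 0.0863. Without the 3 libraries with the most adipocyte marker counts, the log2 fold change was 0.73 (adjusted p = 0.140).

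Hadhb did not pass the test. Its level was 58.1, 81.3, 65.5, 74.5 and 101 CPM in AD and 54.2 to 82.9 CPM (median 62.0) in HF + AD. In HF + AD, 1 mouse lay below the AD range and the others within it (log2 fold change −0.23 ± 0.16, SE, adjusted p = 0.390). The log2 ratio of Hadha to Hadhb was −0.42 ± 0.27 (SD, n = 5) in AD and 0.60 ± 0.74 (SD, n = 7) in HF + AD. It was −0.60, −0.60, 0.05, −0.42 and −0.52 in AD mice 1 to 5, and −0.70 to 1.42 (median 0.73) in HF + AD. In HF + AD, 6 mice exceeded all AD mice and mouse 5 below them all.

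The genes lie head to head on chromosome 5, Hadha on the minus strand (chr5:30118304-30155162) and Hadhb on the plus strand (chr5:30155248-30184593, GRCm38). Their RefSeq promoter windows are shown because Hadha passed the test and Hadhb did not while their windows share most of this sequence, with GC boxes in capitals.
Hadha (chr5:30154931-30155230, minus strand): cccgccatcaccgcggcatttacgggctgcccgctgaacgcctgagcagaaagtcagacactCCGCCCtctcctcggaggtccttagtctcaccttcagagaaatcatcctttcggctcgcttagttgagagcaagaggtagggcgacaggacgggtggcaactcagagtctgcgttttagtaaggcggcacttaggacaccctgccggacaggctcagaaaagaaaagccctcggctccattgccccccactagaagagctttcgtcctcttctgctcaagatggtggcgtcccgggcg
Hadhb (chr5:30155003-30155302, plus strand): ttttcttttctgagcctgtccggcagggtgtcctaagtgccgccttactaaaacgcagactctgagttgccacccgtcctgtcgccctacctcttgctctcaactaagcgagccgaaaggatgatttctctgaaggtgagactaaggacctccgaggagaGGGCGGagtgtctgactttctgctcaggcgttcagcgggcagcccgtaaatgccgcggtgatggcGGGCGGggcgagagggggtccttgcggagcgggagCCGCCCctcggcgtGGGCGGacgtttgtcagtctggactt
The windows share 228 bases, read from opposite strands, so the GC box in capitals in the Hadha window is also the first of those in the Hadhb window. None of the other motifs stood in either window. The 3′ end of Hadha overlaps Garem2, on the opposite strand, whose entry, under its older symbol Gareml, had 0 to 9 counts in AD and 2 to 21 in HF + AD. Reads of the overlap cannot be told apart without the strand setting. The same holds for the 3′ ends of Acadvl (with Dvl2), Ucp2 (Dnajb13), Acot8 (Snx21), Acaa1a (Slc22a14) and Eci2 (Gm16984), and so for the ratio of Acadl to Acadvl. The 3′ ends of Etfb (with Gm45233 and Mir7051) and Cpt1b (Gm44502) overlap genes on the same strand, which a strand setting would not separate.

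**Figure D3:**
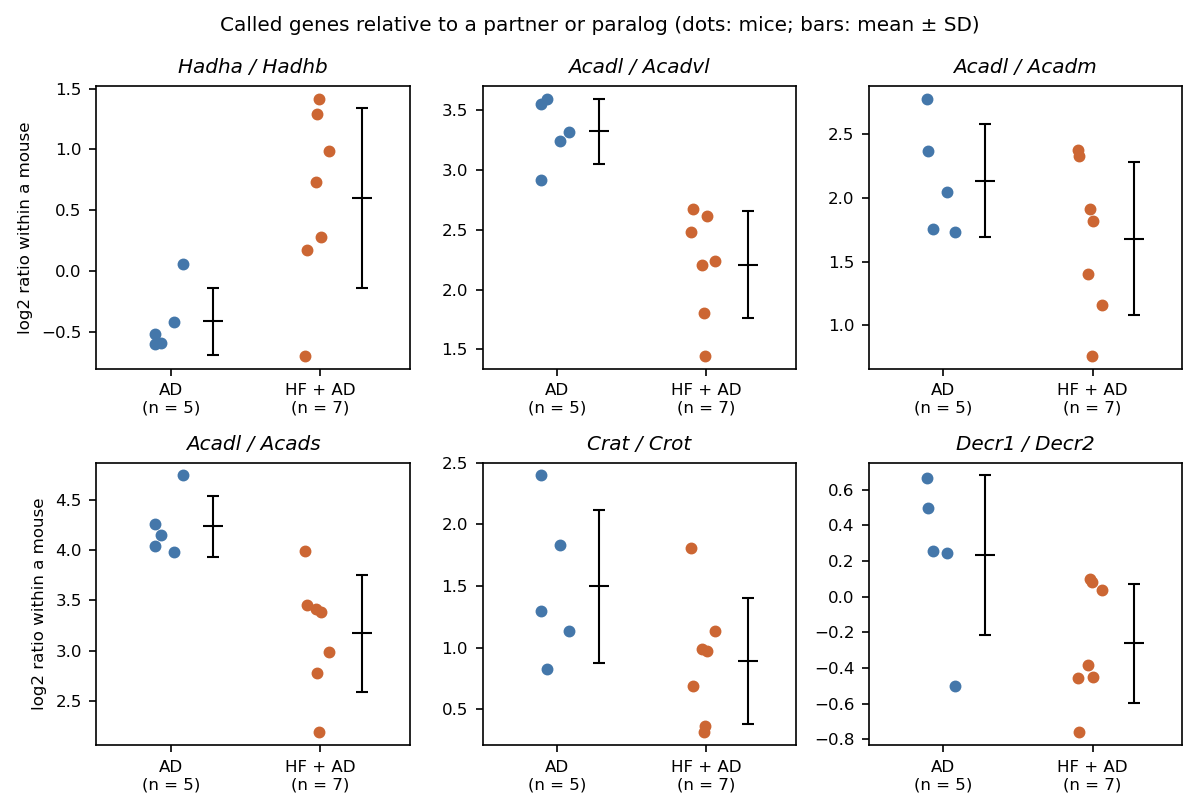
Log2 ratios within each mouse (dots) of a called member to a partner or paralog, in AD (blue, n = 5) and HF + AD (orange, n = 7), with the mean and SD as bars. Acadl to Acadvl separates the groups, and for Hadha to Hadhb 6 HF + AD mice lie above the AD mice and 1 lies below.

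Among the other enzymes of the spiral, Hadh, the hydroxyacyl-CoA dehydrogenase for medium and short chains, was 679, 592, 643, 574 and 675 CPM in AD. It was 398 to 609.5 CPM (median 446) in HF + AD. In all, 6 of the 7 HF + AD mice lay below all AD mice, with HF + AD mouse 4 within their range. The log2 fold change of −0.38 ± 0.13 (SE, adjusted p = 0.0635) missed the threshold (exact permutation p = 0.0101). With each mouse left out in turn the adjusted p was 0.0421 to 0.122, under 0.05 in 1 of the 12 fits, that without HF + AD mouse 4. Echs1, the short-chain hydratase, and Acaa2, a thiolase, gave fitted log2 differences of 0.16 (adjusted p = 0.673) and 0.03 (adjusted p = 0.904).

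Of the 5 auxiliary enzymes, which prepare the double bonds of unsaturated chains for the spiral, Decr1 alone passed. It lies at chr4:15917240-15945507 (GRCm38) and encodes the mitochondrial 2,4-dienoyl-CoA reductase. Its level was 101, 67.3, 55.1, 61.4 and 87.8 CPM in AD mice 1 to 5, and 37.4 to 61.4 CPM (median 50.9) in HF + AD. AD mouse 1 was highest, and 5 of the 7 HF + AD mice lay below all AD mice. Means were 6.20 ± 0.36 (SD, n = 5) and 5.66 ± 0.23 (SD, n = 7) on the log2(CPM + 1) scale (exact two-sided permutation p = 0.0101). The fitted log2 fold change was −0.58 ± 0.17 (SE, adjusted p = 0.0469), close to the threshold. Without any 1 of AD mice 1, 2 and 5 or HF + AD mice 1, 2, 3, 4, 6 and 7, the adjusted p was 0.0631 to 0.104. It was 0.0569 with library totals alone and 0.0554 with no filter on low counts. Without the 3 libraries with the most adipocyte marker counts, the log2 fold change was −0.43 (adjusted p = 0.208). Decr2, its peroxisomal counterpart, had a log2 fold change of −0.04 (adjusted p = 0.922), and Ech1, Eci1 and Eci2, which shift double bonds, ones of 0.01, −0.09 and −0.17.

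**Figure D4:**
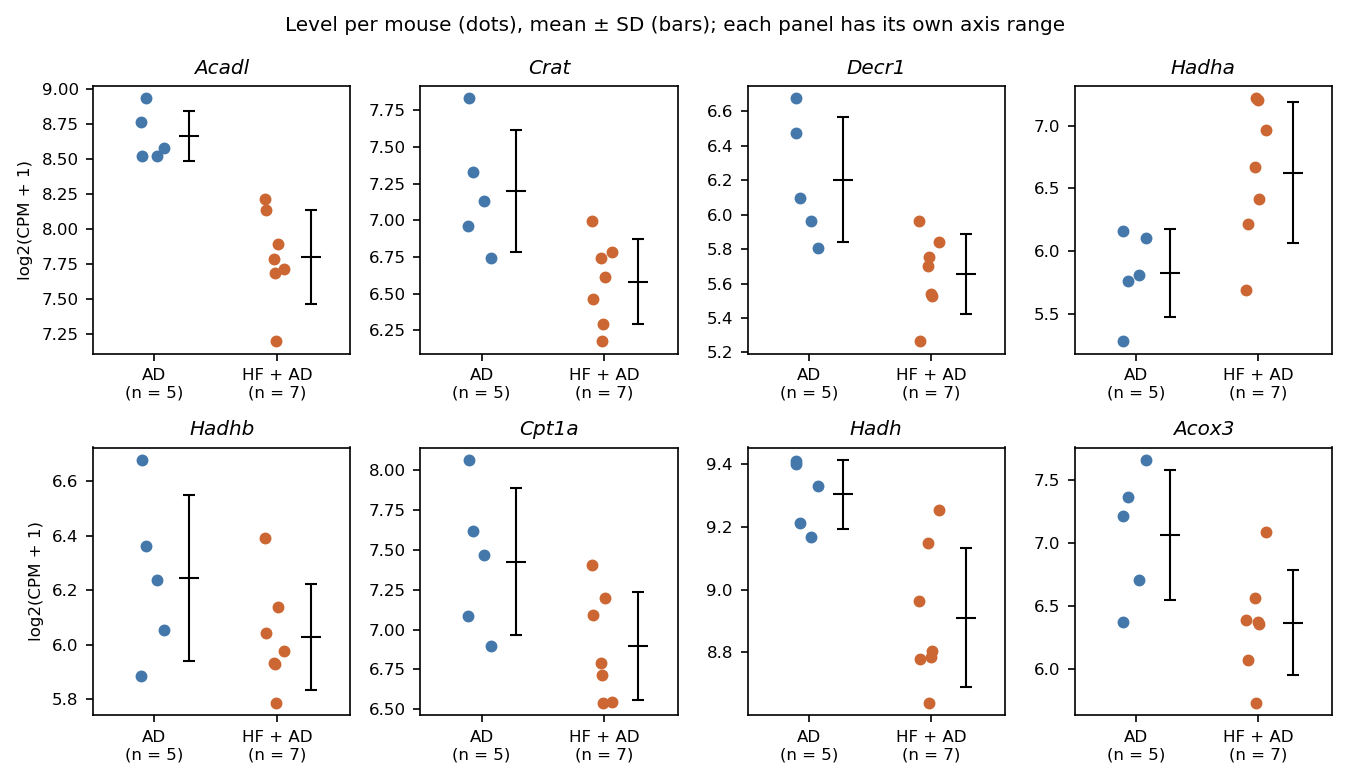
Levels of 8 members in each mouse as log2(CPM + 1), AD in blue (n = 5) and HF + AD in orange (n = 7), with the mean and SD as bars and an axis range of its own for each panel. The groups separate for Acadl and overlap in the other panels, and Hadha is the one whose mean is higher in HF + AD.

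None of the 3 genes of the electron transfer flavoprotein passed edgeR's test, and 1 had an unadjusted p under 0.05. Etfb, its beta subunit, was 122, 70.4, 93.3, 110.3 and 95.8 CPM in AD and 80.4 to 168 CPM (median 143) in HF + AD. In HF + AD, 4 mice exceeded all AD mice and the others within their range (log2 fold change 0.42 ± 0.19, SE, adjusted p = 0.183). With the GC trend of each library removed, the log2 fold change was 0.18 (adjusted p = 0.562). Etfa, the alpha subunit, had a log2 fold change of 0.35 (adjusted p = 0.381), and Etfdh, which passes the electrons on to ubiquinone, one of −0.33 (adjusted p = 0.470).

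None of the 4 peroxisomal genes tested passed edgeR's test, and 1 had an unadjusted p under 0.05. Acox3, the oxidase for branched chains, was 82.0, 163, 201, 103 and 147 CPM in AD and 52.0 to 135 CPM (median 81.7) in HF + AD. In HF + AD, 4 mice lay below all AD mice. The log2 fold change was −0.72 ± 0.23 (SE, adjusted p = 0.0568), and the exact permutation p was 0.0278. Over the 12 fits with 1 mouse left out, the adjusted p was 0.0212 (no AD mouse 1) to 0.152 (no AD mouse 3, log2 fold change −0.56). It was under 0.05 in 2 of them, the other being that with no HF + AD mouse 4 (0.0288). Acaa1a, a thiolase, Hsd17b4, the D-bifunctional enzyme, and Acot8, a thioesterase, had log2 fold changes of 0.07, −0.08 and −0.19 (adjusted p from 0.738 to 0.842). Acaa1a has a near copy, Acaa1b, with which it may share reads.

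None of the 3 regulators passed edgeR's test, and 0 had an unadjusted p under 0.05. Ppara, the receptor for fatty acids best known from liver, was low, at 3.09, 9.74, 3.03, 6.37 and 5.79 CPM in AD and 3.41 to 15.0 CPM (median 8.33) in HF + AD. In HF + AD, 3 mice lay above the AD range (log2 fold change 0.70 ± 0.44, SE, adjusted p = 0.354). Ppard, the PPAR of keratinocytes and muscle, was 93.0, 31.0, 49.4, 73.3 and 66.2 CPM in AD and 30.1 to 65.7 CPM (median 47.2) in HF + AD. In HF + AD, 1 mouse lay below the AD range (log2 fold change −0.43 ± 0.24, SE, adjusted p = 0.285). Ppargc1a, a coactivator of PPARs and of mitochondrial genes, was 0, 5.70, 3.33, 6.81 and 4.44 CPM in AD and 3.83 to 10.3 CPM (median 7.50) in HF + AD. The 0 in AD mouse 1 allows up to 0.272 CPM, and 4 HF + AD mice exceeded all AD mice (log2 fold change 0.80 ± 0.68, SE, adjusted p = 0.507).

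Pdk4, the kinase that restrains glucose oxidation when fat is burned and a well-known PPAR target, was 2.63, 12.6, 9.60, 20.9 and 3.26 CPM in AD and 7.17 to 22.9 CPM (median 9.92) in HF + AD. In HF + AD, 1 mouse lay above the AD range (log2 fold change 0.37 ± 0.47, SE, adjusted p = 0.678). Ucp2, a carrier of the inner mitochondrial membrane, was 28.8, 41.0, 80.7, 54.0 and 54.0 CPM in AD and 56.9 to 93.8 CPM (median 76.5) in HF + AD. In HF + AD, 3 mice exceeded all AD mice. Its log2 fold change was 0.56 ± 0.22 (SE, adjusted p = 0.119), with an exact permutation p of 0.0354. Over the 12 fits with 1 mouse left out, the adjusted p was 0.0410 (no AD mouse 3) to 0.219 (no AD mouse 2), and that with no AD mouse 3 alone was under 0.05. The log2 fold change was 0.37 (adjusted p = 0.311) with the GC trend removed and 0.28 (adjusted p = 0.466) without the 3 libraries with the most adipocyte marker counts. Acot2, a mitochondrial thioesterase with a near copy in Acot1, and Acsf2, an acyl-CoA synthetase family member, gave fitted log2 differences of −0.09 (adjusted p = 0.848) and 0.30 (adjusted p = 0.840). The 16 tested members not given by mouse here had log2 fold changes of −0.33 to 0.35, 8 higher and 8 lower, with adjusted p of 0.317 or more.

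Of 73 further genes of the pathway and its surroundings, 70 were tested and 5 passed, all lower in HF + AD (7.14%, against 4.77% of all genes called lower and 9.2% called in either direction). At an unadjusted p under 0.05, 21 passed, 3 higher and 18 lower, where 25.1% of all genes did (1743 higher and 1808 lower of 14163). This split by direction was not tested. The 5 that passed after adjustment were 1 of 19 other mitochondrial oxidation genes, 2 of 15 PPAR partners and targets and 2 of 16 citrate cycle genes. None of 15 other peroxisomal genes and none of 5 ketone body genes passed in edgeR's test, although 3 and 2 of them had an unadjusted p under 0.05. Rxra, the partner with which PPARs bind DNA, was 295, 278, 281, 296 and 275 CPM in AD and 164 to 239 CPM (median 203) in HF + AD. All 7 HF + AD mice lay below all AD mice, and Rxra fell by 0.52 on the log2 scale (SE 0.12, adjusted p = 0.0137). Without the 3 libraries with the most adipocyte marker counts it was −0.51 (adjusted p = 0.0699). Plin5, a coat protein that ties lipid droplets to mitochondria, was 15.2, 14.6, 5.25, 7.70 and 11.8 CPM in AD and 2.03 to 5.49 CPM (median 3.66) in HF + AD. In HF + AD, 6 mice lay below all AD mice, and Plin5 fell by 1.56 on the log2 scale (SE 0.40, adjusted p = 0.0248), with an adjusted p of 0.0503 without AD mouse 2 and of 0.0573 without HF + AD mouse 2. Acot13, a thioesterase, fell by 0.65 (SE 0.17, adjusted p = 0.0245), and its adjusted p was 0.0664 without AD mouse 2. The citrate cycle genes Idh3b, a subunit of isocitrate dehydrogenase, and Suclg1, a subunit of succinyl-CoA ligase, fell by 0.64 (SE 0.17, adjusted p = 0.0279) and 0.49 (SE 0.14, adjusted p = 0.0370). Idh3b did not pass without any 1 of AD mice 2 and 3 or HF + AD mice 1, 2 and 4 (0.0528 to 0.0771), nor Suclg1 without any 1 of AD mice 1, 2 and 4 or HF + AD mice 1, 2, 4 and 6 (0.0550 to 0.0977). Without the 3 libraries with the most adipocyte marker counts, Acot13 was −0.42 (adjusted p = 0.176) and Suclg1 −0.34 (adjusted p = 0.218). In that fit Plin5 was −1.28 (adjusted p = 0.0898) and Idh3b −0.68 (adjusted p = 0.0571).

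Libraries also differed in how levels followed base composition. The median log ratio of genes in the highest of 5 equal bins of transcript GC content, relative to the lowest bin, was −0.39 to 0.12 in the AD libraries and 0.03 to 0.32 in the HF + AD libraries. Across all genes with a GC value, the median log2 fold change went from −0.09 in the lowest bin to 0.18 in the highest. Over the 34 members, the log2 fold change and GC content had a Pearson's r of 0.04 and a Spearman's rho of 0.11, a description over genes that share libraries. With each library's GC trend removed, an alternative chosen after seeing the data, 5 members passed, all lower. In that fit 9.47% of all genes were called and 6.14% were called lower. Acadl (adjusted p = 0.00792) and Crat (adjusted p = 0.0148) were among them, with Hadh (adjusted p = 0.0334), Acox3 (adjusted p = 0.0400) and Cpt1a (adjusted p = 0.0465). Hadha (0.76 on the log2 scale, adjusted p = 0.0531) and Decr1 (−0.56, adjusted p = 0.0625) were not.

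**Figure D5:**
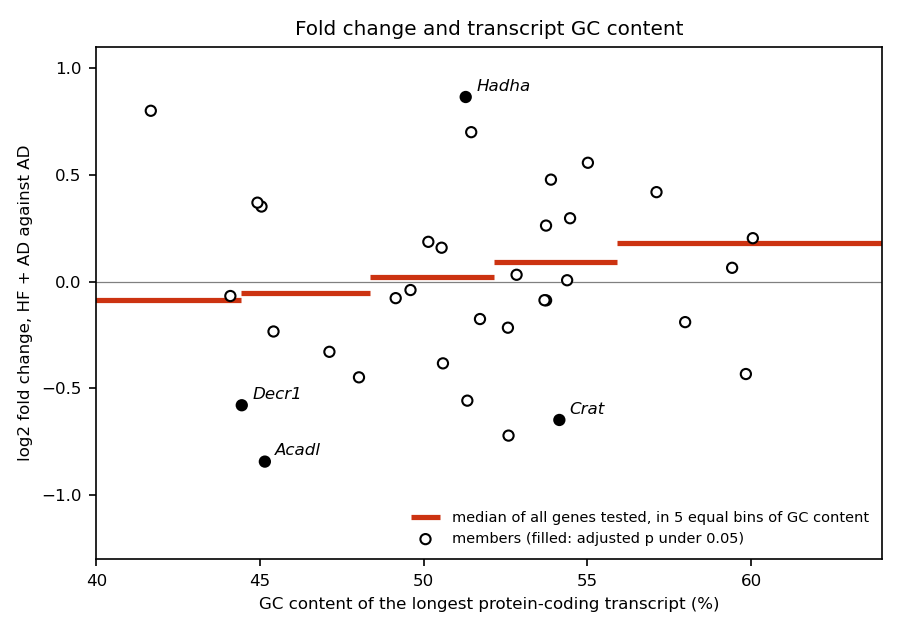
Log2 fold change of the 34 tested members (HF + AD against AD, vertical) against the GC content of the longest protein-coding transcript (percent, horizontal), filled where the adjusted p was under 0.05. Red lines are the medians of all genes tested in 5 equal bins of GC content, from −0.09 to 0.18, with the outer bins running past the axis; Acadl and Decr1 lie below the lines and Hadha above them.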

How the data were processed

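Skin RNA of 12 mice, 1 library each, was grouped by the labels into AD (n = 5) and AD+OB, here HF + AD (n = 7). Each deposited table holds 1 library's raw counts by gene symbol, made by the authors from QuantSeq 3′ reads. The submitters' processing notes name Bowtie2, bedtools and mm10 without versions. The strand setting and any removal of duplicate reads are not given in the sources used here. The labels do not say which mice shared a cage or litter, so p-values measure the spread between these mice.

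Counts were fitted in edgeR 4.0.16 (R 4.3.3) with TMM scaling, filterByExpr and the quasi-likelihood test, with group as the only term, and p-values were adjusted by Benjamini-Hochberg over all 14163 genes kept (threshold 0.05). The fit was tested on simulated data. Levels of single genes are log2(CPM + 1). They were compared by an exact permutation test over 792 splits of the mice, where the two-sided p is the smaller tail doubled, as in SciPy 1.17.1. A first version counted absolute differences, and the definition was changed after its values were seen. The number of tested members with a p under 0.05 was the same in both versions.

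The members, gene lists and markers were chosen with earlier results of these data known. Values by mouse are given for members that passed and for those whose groups did not overlap. They are also given for preset genes of transport and control, for Hadha, Hadhb and Pdk4, likewise preset, and for the 5 largest other changes. Transcript GC content and positions came from GENCODE M21 (GRCm38), and promoters from RefSeq (GRCm38.p6), where 30 of 35 members matched. Alternatives used DESeq2 1.42.0 and limma 3.58.1. Replicate numbers did not pair the mice (same-number r of −0.12 to 0.08). No deposited column was left unused.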

Additional observations from a re-analysis of the deposited data

Results flagged for a closer look

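Each group of mice was examined for 1 mouse standing apart (the gap to its neighbour against the group's whole range, Dixon's 95% critical value), in 80 groups, of which 4 passed, where chance gives about 1 in 20. For Ech1, AD mouse 1 stood above the other AD mice (6.95 against 6.37 to 6.50 on the log2(CPM + 1) scale, ratio 0.777). For Ppargc1a, AD mouse 1 had no read and stood below the other AD mice (0 against 2.12 to 2.97, ratio 0.713). For Crot, 1 HF + AD mouse stood below the others (5.19 against 5.64 to 5.93, ratio 0.612). For the log2 ratio of Hadha to Hadhb, AD mouse 3 stood above the other AD mice (0.05 against −0.60 to −0.42, ratio 0.728).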

How the results depend on the processing

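The 4 called members kept their direction under every alternative run. Acadl passed in 20 of 22 alternatives (log2 fold change −0.92 to −0.72, adjusted p 3.72e-05 to 0.0579), Hadha in 11, Crat in 10 and Decr1 in 7. Scaled by library totals alone, 2 members passed (Acadl and Hadha; 8.89% of all genes). Leaving out 1 mouse at a time gave 639 to 1461 genes, 1 to 5 members and 1 to 7 other pathway genes called, and a median log2 fold change of the members of −0.10 to 0.03. With AD mouse 2 or HF + AD mouse 1, 2 or 6 left out, Acadl alone passed. Without the 3 libraries with the most adipocyte marker counts, 413 genes, 0 members (7 at an unadjusted p under 0.05, edgeR, against 23.7% of all genes) and 1 other pathway gene (Cidea) passed. With the GC trend of each library removed, 10 other pathway genes passed (9.47% of all genes called). Of 14 members given by mouse that were not called, 11 had a log2 fold change that moved by over 1.5 times under at least 1 alternative (all but Hadh, Acox3 and Ppara). DESeq2's Wald test called 1945 genes and 6 members, and limma 1558 genes and 4 members.

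The replicate numbers are not a pairing: with the replicate block, edgeR called 192 genes, 0 members (9 at an unadjusted p under 0.05) and 0 other pathway genes (12 at an unadjusted p under 0.05, against 20.1% of all genes), and 1 of 5 AD mice correlated best with its own number.

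Members at a few CPM (Cpt1b, Ppara, Ppargc1a, Acsf2) had standard errors of 0.44 to 0.71 on the log2 scale. Counting limits cover counting error only.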
